A study of Mus musculus with 12 samples.

Results

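The 41 interferon-stimulated and antigen presentation genes were followed in mouse liver after CITCO, a small-molecule agonist of human CAR. They were taken by symbol from the deposited expression table and joined by Ensembl identifier to the count table, where all 41 were found among 51912 genes. Sorted by role, they comprise 6 IFIT and OAS effectors, 3 genes of the ISG15 system, 4 transcription factors, 3 RNA sensors, 7 GTPases of the IRG and GBP families, 6 other interferon-stimulated genes, 4 genes of peptide loading, 4 class I heavy chains and 4 class II genes.

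Liver RNA came from 12 male mice in 4 groups of 3: WT with the vehicle corn oil, WT with CITCO, hCAR/hPXR with CITCO and Car KO/hPXR with CITCO. The hCAR/hPXR mice carry human CAR and human PXR in place of the mouse receptors. The Car KO/hPXR mice lack Car and carry human PXR, and both lines were made on a C57BL/6NTac background. The authors cite in vitro work that proposes CITCO as an activator of human PXR too. Adult mice were injected intraperitoneally once a day for 4 days and killed on day 5, at 10 mg/kg CITCO by the labels and at 10 or 50 mg/kg by the methods. The corn oil libraries used here are all from WT mice, so genotype and response to CITCO cannot be told apart in the humanised groups. The libraries held between 1167027 and 2341572 counts. Mouse Nr1i2, the gene for PXR, had 100 to 199 counts in WT libraries and 0 to 2 in the others. Mouse Nr1i3, the gene for CAR, had 104 to 287 counts in WT libraries and 0 to 6 in the others, and Cyp2b10, a classical CAR target, had 184 to 288 counts in hCAR/hPXR libraries and 0 to 6 in the rest. All 5 hepatocyte markers, such as Alb and Ttr, were well counted in the 12 libraries.

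Interferons signal through receptors on nearly all cells. Type I interferon acts through a complex with STAT2 and IRF9 that binds a promoter element called the ISRE, whereas interferon gamma acts mainly through the GAS element. The genes so induced include RNA sensors, effectors such as the IFIT and OAS proteins, GTPases that attack the vacuoles of intracellular pathogens, and the machinery that loads peptides on MHC class I. Class I is carried by almost every cell, hepatocytes included. Class II is carried in liver mainly by dendritic cells, B cells and macrophages, and its promoters share a Y box, the site of the factor NF-Y.

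The promoters of the members are shown for the elements that the field assigns to these pathways. RefSeq promoters on GRCm38.p6, from 250 bases before to 50 bases after the start of transcription, were given for 33 members, in 38 windows since some genes have several starts. The members without an entry were Dhx58, Cd74, Ifi27, Tap2, Usp18, Iigp1, Parp14 and H2-Ab1. All motifs were searched on both strands. The ISRE, taken as TTTC, any 2 bases and TTTC again, was found in 17 of 38 member promoters (44.7%), 1 in each of 17 members, against 1131 of 32851 promoters of the same length (3.44%). The GAS element, TTCNNNGAA, was found in 8 of 38 member promoters (21.1%) and in 8.3% of all promoters. The Y box, CTGATTGG, was found in 7 of 38 member promoters (18.4%) and in 4.1% of all promoters, and the 6 members that hold it were H2-Aa, H2-Eb1, H2-D1, H2-K1 (in both of its overlapping windows), H2-T23 and Tap1. By role, 6 of 6 GTPases with an entry held an ISRE and 2 of 2 class II genes with an entry held a Y box. A match is a run of letters and does not show that a factor was bound.

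The stretches below carry these elements in members to which the results return, each with 20 flanking bases or as many as lie before the start of transcription. Igtp, chr11:58199491-58199551 (plus strand), and Irgm2, chr11:58214882-58214942 (plus strand), have a GAS element and an ISRE 2 bases apart, both in capitals, and 59 of 61 bases are the same in the 2 stretches:
Igtp: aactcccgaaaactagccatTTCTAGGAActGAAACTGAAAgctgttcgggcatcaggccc
Irgm2: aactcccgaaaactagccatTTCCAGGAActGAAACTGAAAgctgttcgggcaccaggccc

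In the next 5 stretches the capitals mark ISRE matches, which overlap each other in Irgm1 and Isg15. They lie at chr11:48871421-48871470 for Irgm1 (minus strand), chr10:128270256-128270305 for Stat2 (plus strand), chr4:156200855-156200916 for Isg15 (minus strand), chr19:34640765-34640833 for Ifit1 (plus strand) and chr2:122147528-122147577 for B2m (plus strand):
Irgm1: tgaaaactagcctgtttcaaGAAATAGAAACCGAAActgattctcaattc
Stat2: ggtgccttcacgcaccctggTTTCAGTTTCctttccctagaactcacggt
Isg15: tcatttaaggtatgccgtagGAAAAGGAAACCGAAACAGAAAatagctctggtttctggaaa
Ifit1: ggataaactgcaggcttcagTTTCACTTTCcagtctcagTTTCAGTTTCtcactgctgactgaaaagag
B2m: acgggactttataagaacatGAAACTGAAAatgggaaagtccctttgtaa

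The Y box, in capitals, is shown for the class II genes H2-Aa, chr17:34287847-34287894 (minus strand), and H2-Eb1, chr17:34305785-34305832 (plus strand):
H2-Aa: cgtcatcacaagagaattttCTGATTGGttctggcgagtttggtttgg
H2-Eb1: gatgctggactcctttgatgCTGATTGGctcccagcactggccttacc

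Of the 41 members, 34 were counted well enough to be tested, that is, they passed the expression filter that left 8594 genes. With the stricter demand of at least 10 counts in every library, 25 remained. The members under the filter were Ifit2, Ifit3, Oasl2, Oas1a, Gbp2, Gbp3 and Ifi44. Oas1a, a 2'-5' oligoadenylate synthetase that senses double-stranded RNA, had 0 counts in 7 libraries and 1 in the other 5. Counts were 0 to 7 for Ifit2 and 3 to 13 for Ifit3, effectors that bind foreign RNA. They were 0 to 17 for Oasl2, 1 to 6 for Gbp2, 1 to 10 for Gbp3 and 4 to 13 for Ifi44. In units scaled to library size (CPM), 3 counts equal 1.34 to 2.505, and these 7 genes did not enter the test. Without the filter all 41 members were tested, and 0 of these 7 were called. Sequencing read the 3' ends of transcripts, so counts were not divided by length, and no gene's level is compared with another's. The members together took between 0.548% and 0.636% of the counts of a library, and B2m alone between 31.5% and 42.2% of the members' counts.

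**Figure D1:**
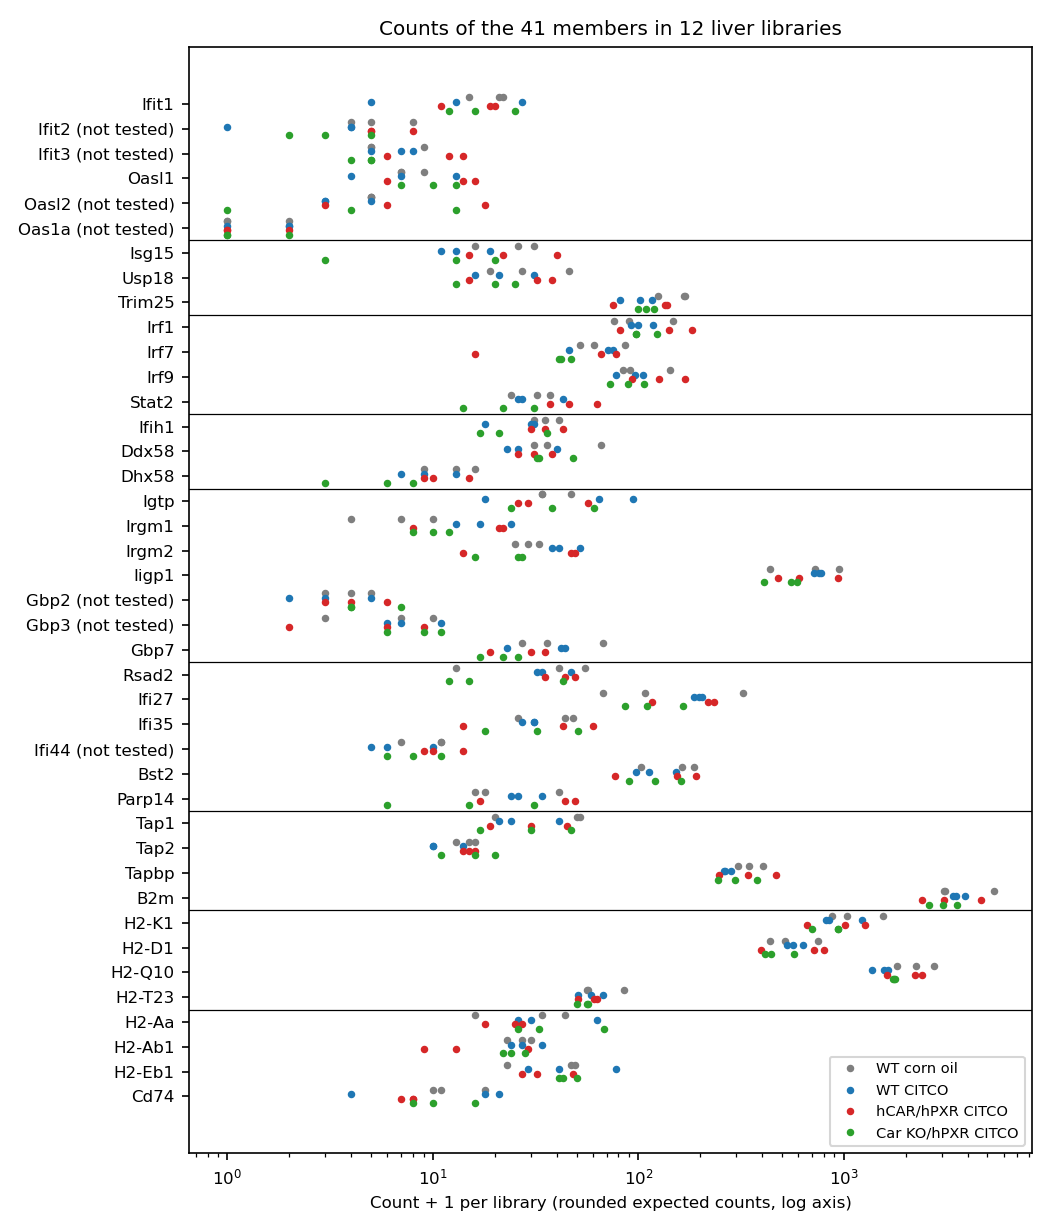
Counts of each of the 41 members in the 12 libraries, plotted as count + 1 on a log axis, with 1 point per library coloured by group and lines between roles. B2m (2410 to 5363 counts), H2-Q10, H2-K1, H2-D1 and Iigp1 lie to the right, whereas Oas1a does not pass 1 count, and the colours overlap in most members.

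The 4 questions below follow from the design: how hCAR/hPXR livers and Car KO/hPXR livers each differ from WT livers under CITCO, how WT livers given CITCO differ from those given corn oil, and how both humanised lines differ from each other. No member was called in any of the 4 comparisons, where a call needs an adjusted p under 0.05 (quasi-likelihood test of edgeR, adjusted over all genes tested by Benjamini-Hochberg) and a fold change over 1.5. For hCAR/hPXR against WT CITCO livers, 0 of 34 members were called, against 0.407% of all genes tested, and 2 of 34 had an unadjusted p under 0.05, against 8.81%. For Car KO/hPXR against WT CITCO livers, 0 of 34 were called (0.256% of all genes), and 3 had an unadjusted p under 0.05 (9.3% of all genes). Between WT CITCO and WT corn oil, 0 of 34 were called (0.233% of all genes), and 3 had an unadjusted p under 0.05 (9.13% of all genes), all with the higher value under CITCO. Between both humanised lines, 0 of 34 were called (0.582% of all genes), and 3 had an unadjusted p under 0.05 (10.6% of all genes). DESeq2's Wald test and limma on the deposited values also called 0 members in each comparison. DESeq2 gave 4, 3, 7 and 3 members with an unadjusted p under 0.05 in that order of comparisons, against 7.02%, 7.44%, 7.30% and 8.65% of all genes. Limma gave 1, 4, 4 and 5, against 8.67%, 9.73%, 8.84% and 10.8%. The test for any difference among the 4 groups called 0 of 34 members, against 1.42% of all genes, and 5 members (Stat2, Irgm1, Irgm2, H2-Aa and H2-Ab1) had an unadjusted p under 0.05, against 11.6%. Without the filter on low counts, H2-Aa alone was called, between both humanised lines (adjusted p = 0.0468, quasi-likelihood test of edgeR) and in the test of the 4 groups (adjusted p = 0.0452). The shares of all genes called are so low that 0 of 34 is near the background.

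Positive and negative fold changes were close in number except between WT CITCO and WT corn oil. The members' median log2 fold change was -0.01 for hCAR/hPXR against WT under CITCO (16 positive, 18 negative), -0.04 for Car KO/hPXR against WT (16 and 18), 0.15 for WT CITCO against WT corn oil (21 and 13), and -0.04 for hCAR/hPXR against Car KO/hPXR (15 and 19). Over all genes tested the medians were 0.013, -0.0039, -0.00028 and 0.013. The median moved when 1 library was left out: for WT CITCO against WT corn oil it was 0.073 without WT CITCO replicate 3, and for hCAR/hPXR against Car KO/hPXR it was 0.12 without hCAR/hPXR CITCO replicate 3. The libraries did not overlap between groups for 5, 5, 5 and 7 members in the 4 comparisons, against 13.6%, 14.2%, 14.7% and 15.1% of all genes. The median SE of the log2 fold changes was 0.30 to 0.32. The 95% interval lay within a 1.5-fold change either way for 7, 5, 6 and 7 members (17.6%, 16.8%, 17.8% and 16% of all genes), so for most members a change of 1.5-fold was neither shown nor bounded.

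**Figure D2:**
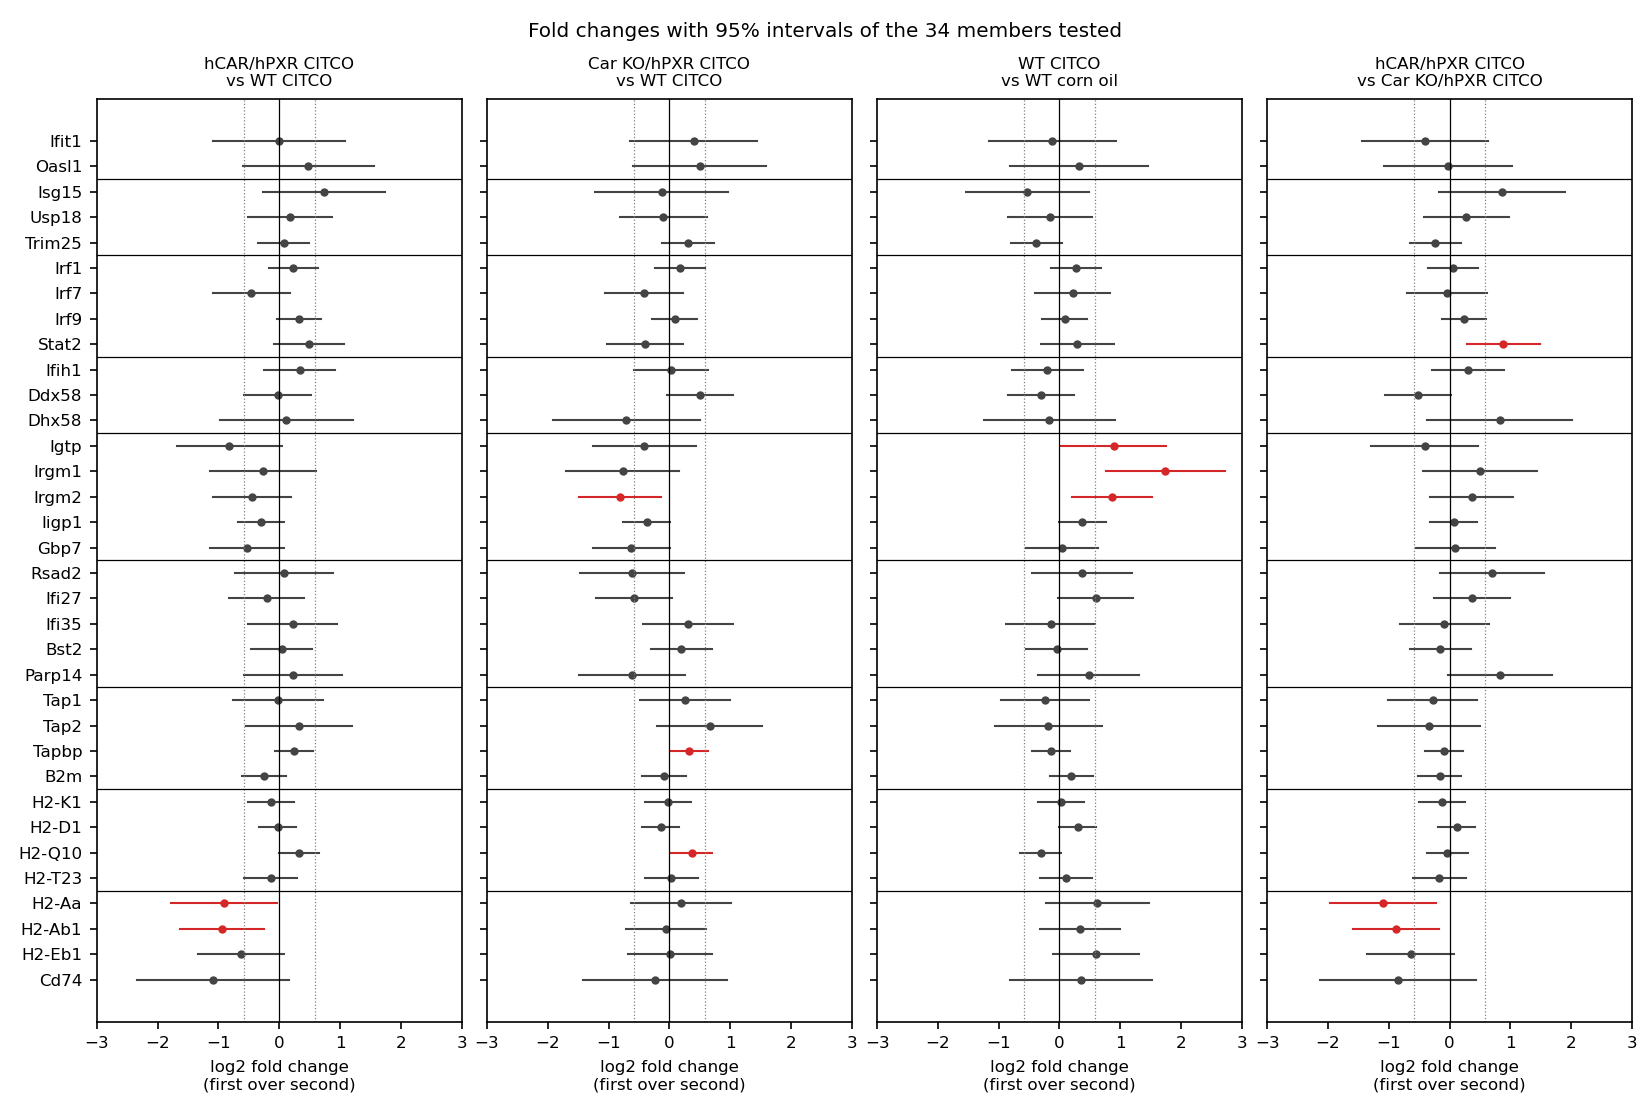
Log2 fold changes (points) and 95% intervals (lines) of the 34 members tested, in 4 panels for the 4 comparisons, with dotted lines at a 1.5-fold change and red for an unadjusted p under 0.05. The red members are 2, 3, 3 and 3 in the 4 panels, none of which passed the adjusted threshold, and H2-K1 lies within the dotted lines in every panel.

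Among the GTPases of the IRG and GBP families, 0 of 5 tested were called in any comparison. All 5 had a positive fold change for WT CITCO over WT corn oil (median log2 fold change 0.86), and 3 of them, Irgm1, Irgm2 and Igtp, had an unadjusted p under 0.05. Over WT CITCO, all 5 had a negative fold change for either humanised line (medians -0.45 and -0.63), comparisons that share the WT CITCO libraries. Over all genes, 51.6% and 49.5% had a positive fold change in these comparisons. Irgm1 (chromosome 11, 48861968 to 48871683 on GRCm38), a regulator of the other IRG proteins and of autophagy, was counted at 2.69, 2.12 and 5.43 CPM in WT corn oil and at 10.4, 15.9 and 8.44 CPM in WT CITCO libraries. These groups did not overlap. It was at 10.9, 11.6 and 5.84 CPM in hCAR/hPXR and at 6.99, 5.84 and 7.39 CPM in Car KO/hPXR mice. Every library given CITCO, from all 3 genotypes, thus lay above every corn oil library, but narrowly. This split was not among the planned comparisons, and the share of all genes that show it was not computed. The corn oil libraries are all WT, so the split is not a comparison within each genotype. The nearest were at 5.84 CPM (7 counts, in hCAR/hPXR replicate 3 and Car KO/hPXR replicate 2) and 5.43 CPM (9 counts, in WT corn oil replicate 3). The log2 fold change of WT CITCO over WT corn oil was 1.74 ± 0.47 (SE), and the adjusted p was 0.175 (edgeR's quasi-likelihood test). The gene rests on 3 to 9 counts in the corn oil libraries, and 6 of 12 libraries held at least 10 counts. All 6 were given CITCO, so Irgm1 passed the expression filter only through libraries given CITCO.

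Irgm2 and Igtp are IRG proteins of neighbouring genes on chromosome 11, annotated at 58199618 to 58222782 and 58199556 to 58207591 on the same strand. These intervals overlap, so how reads were divided between them is not certain. The expected counts of each gene were not whole numbers in only 1 of 12 libraries. Irgm2 was counted at 14.3, 19.7 and 14.5 CPM in WT corn oil, 24, 27.7 and 35.9 in WT CITCO, 23.8, 27.8 and 10.8 in hCAR/hPXR and 16.5, 20.9 and 12.3 in Car KO/hPXR mice. The WT CITCO libraries lay above all WT corn oil and all Car KO/hPXR libraries and overlapped with hCAR/hPXR. Over WT corn oil, WT CITCO had a log2 fold change of 0.86 ± 0.31 (SE) (adjusted p = 0.374, edgeR's quasi-likelihood test), and for Car KO/hPXR over WT CITCO it was -0.81 ± 0.32 (adjusted p = 0.414). The 3 WT CITCO libraries enter both comparisons.

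Igtp was counted at 20.6, 23.3 and 19.9 CPM in WT corn oil, 40.9, 11.8 and 65.4 in WT CITCO, 29.0, 16.2 and 20.9 in hCAR/hPXR and 38.1, 19.2 and 30.4 in Car KO/hPXR mice. WT CITCO replicates 1 and 3 lay above all other libraries, whereas replicate 2 was the lowest of the 12. The log2 fold change of WT CITCO over corn oil was 0.89 ± 0.41 (SE; adjusted p = 0.528, edgeR's quasi-likelihood test), and it was 0.32 without WT CITCO replicate 3. In that library 4 of the 5 GTPases tested had their highest value.

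Iigp1, an IRG protein that coats parasite vacuoles, was counted with the least counting error of the group (408 to 950 counts). Its mean was 391 ± 72.0 CPM in WT corn oil, 508 ± 20.8 in WT CITCO, 411 ± 69.8 in hCAR/hPXR and 393 ± 87.0 in Car KO/hPXR mice (SD, n = 3 each). The WT CITCO libraries, at 500, 492 and 531 CPM, lay above all corn oil and all hCAR/hPXR libraries and overlapped with Car KO/hPXR, where replicate 2 had 493 CPM. The log2 fold change of WT CITCO over corn oil was 0.38 ± 0.18 (SE; adjusted p = 0.558, edgeR's quasi-likelihood test). RSEM divided reads between Iigp1 and similar genes in all 12 libraries, so its counts are uncertain to that extent. For Gbp7, a guanylate-binding protein, the adjusted p of the 4-group test was 0.532.

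**Figure D3:**
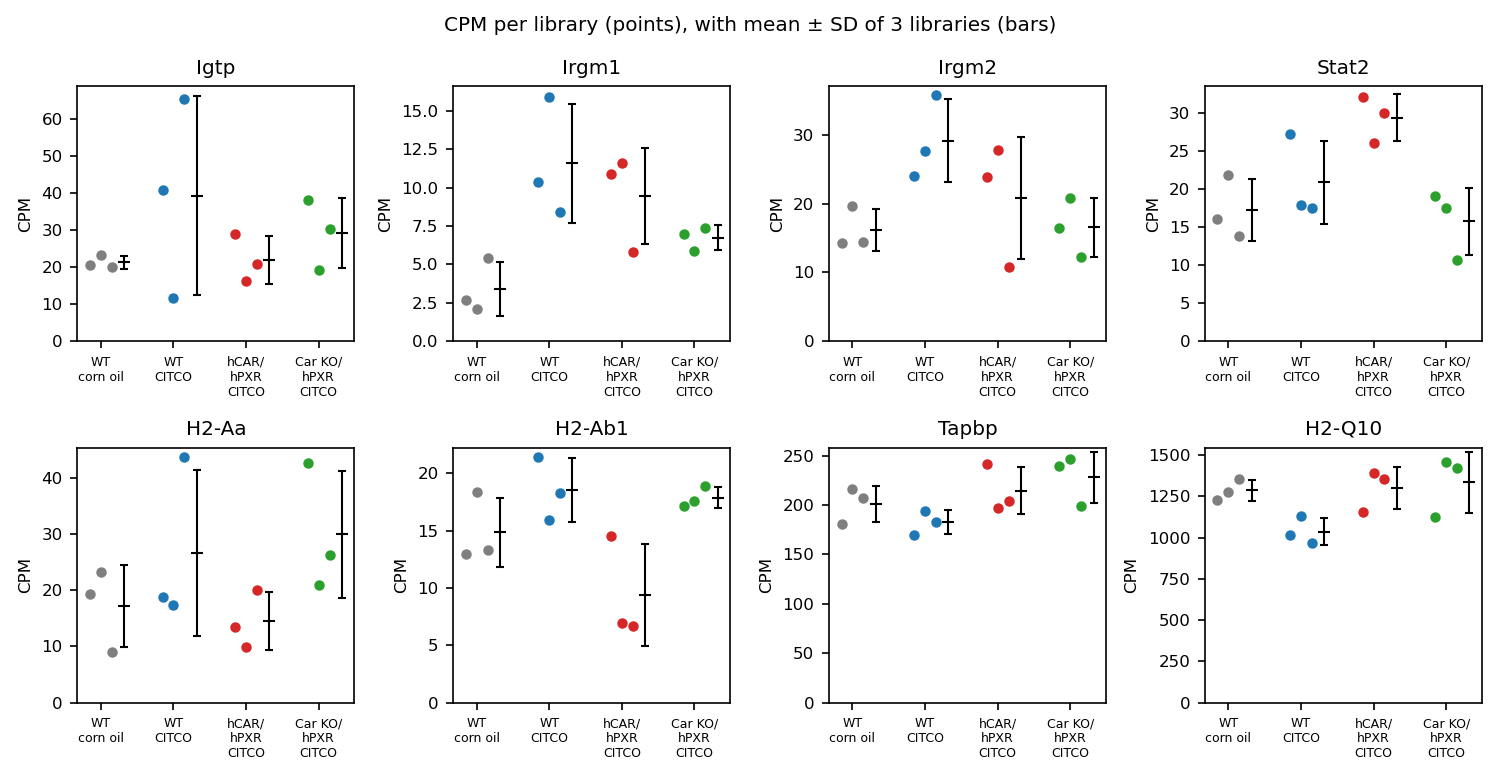
CPM of 8 members with an unadjusted p under 0.05 in at least 1 comparison, with 1 point per library in order of replicate and the mean ± SD (n = 3) beside each group, on axes that start at 0. In Irgm1 the 3 WT corn oil points lie below all others (the nearest at 5.43 against 5.84 CPM), and in Stat2 the hCAR/hPXR points lie above those of Car KO/hPXR. In Igtp the WT CITCO points hold both the lowest and the highest of the 12 values (11.8 and 65.4 CPM).

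The class II genes encode the chains that present peptides from outside the cell. In hCAR/hPXR mice all 4 had a lower mean than in WT CITCO and Car KO/hPXR mice (median log2 fold changes -0.92 and -0.87), and 0 of 4 were called in any comparison. The alpha chain gene H2-Aa (chromosome 17, 34282744 to 34287823) was counted at 19.3, 23.3 and 9.06 CPM in WT corn oil, 18.8, 17.3 and 43.6 in WT CITCO, 13.5, 9.84 and 20.02 in hCAR/hPXR and 42.6, 20.9 and 26.3 in Car KO/hPXR mice. The hCAR/hPXR libraries lay below all Car KO/hPXR libraries and overlapped with both WT groups. Against Car KO/hPXR, the log2 fold change of hCAR/hPXR was -1.10 ± 0.41 (SE) (adjusted p = 0.327, edgeR's quasi-likelihood test) and against WT CITCO it was -0.91 ± 0.41 (adjusted p = 0.543). The latter was -0.36 without WT CITCO replicate 3. Over Car KO/hPXR it was -0.74 without Car KO/hPXR CITCO replicate 1.

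The beta chain gene H2-Ab1 (chromosome 17, 34257689 to 34269419) pairs with H2-Aa. It was counted at 12.99, 18.3 and 13.3 CPM in WT corn oil, 21.4, 15.9 and 18.3 in WT CITCO, 14.5, 6.94 and 6.67 in hCAR/hPXR and 17.2, 17.5 and 18.9 in Car KO/hPXR mice. The hCAR/hPXR libraries lay below all libraries of both other CITCO groups and overlapped with WT corn oil, and their counts were 28, 12 and 8. Against WT CITCO, hCAR/hPXR had a log2 fold change of -0.94 ± 0.33 (SE) (adjusted p = 0.351, edgeR's quasi-likelihood test) and -0.88 ± 0.33 over Car KO/hPXR (adjusted p = 0.328). These were -1.45 and -1.38 without hCAR/hPXR CITCO replicate 1 and -0.75 and -0.69 without replicate 2, with 0 called in either case.

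H2-Eb1, a further beta chain gene, had a mean of 21.3 ± 3.22 CPM in hCAR/hPXR, 33.2 ± 18.5 in WT CITCO, 33.6 ± 7.53 in Car KO/hPXR and 21.7 ± 6.80 in WT corn oil livers (SD, n = 3 each). Its libraries did not overlap between both humanised lines (log2 fold change -0.64 ± 0.34, adjusted p = 0.539, edgeR's quasi-likelihood test). Cd74, the invariant chain that guides class II to its peptides, had 3 to 20 counts and means of 4.33 ± 1.39 CPM in hCAR/hPXR, 9.06 ± 6.24 in WT CITCO, 7.59 ± 1.85 in Car KO/hPXR and 7.30 ± 4.09 in WT corn oil livers. In WT CITCO replicate 3, the median class II gene stood 1.05 log2 units above its mean over the 12 libraries, the highest of all, and 3 of 4 class II genes peaked there.

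In bulk liver, fewer cells of a type and less RNA per cell cannot be told apart. The dendritic cell markers, of which 4 of 6 were found, summed to 7.61 to 12.3 CPM in WT CITCO, 9.33 to 18.5 in hCAR/hPXR, 12.5 to 17.2 in Car KO/hPXR and 9.66 to 12.0 in WT corn oil libraries. Itgax and Ccr7 were at 0 in all hCAR/hPXR libraries and Ccr7 in all WT CITCO libraries. All 5 B cell markers were found and summed to 3.52 to 8.43 CPM in WT CITCO, 5.79 to 11.68 in hCAR/hPXR, 9.18 to 16.5 in Car KO/hPXR and 3.58 to 14.1 in WT corn oil libraries, with Cd79a at 0 in WT CITCO. Only 1 gene of each of these lists, Zbtb46 and Ighm, was counted well enough to be tested. All 11 Kupffer cell and macrophage markers were tested and summed to 376 to 556 CPM in WT CITCO, 483 to 605 in hCAR/hPXR, 412 to 435 in Car KO/hPXR and 309 to 379 in WT corn oil libraries. Cd5l had the most counts of the 11 (178 to 495) and so weighs most in these sums. For hCAR/hPXR over WT CITCO, 5 of the 11 had a positive and 6 a negative fold change (median -0.18 on the log2 scale). For hCAR/hPXR over Car KO/hPXR, 7 had a positive and 4 a negative one (median 0.37), and 0 were called in either comparison. Between WT CITCO and WT corn oil, 10 of the 11 had a positive fold change, 3 of them (Marco, Adgre1 and C1qb) with an unadjusted p under 0.05 and 0 called. The Kupffer sum was 556, 515 and 376 CPM in WT CITCO replicates 1, 2 and 3. Of the 7 T and NK cell markers 6 were found, at a sum of 0 to 8.44 CPM over the 12 libraries, and none was counted well enough to be tested. In hCAR/hPXR mice Cd8a was at 0, and in Car KO/hPXR mice Cd8a, Nkg7 and Klrb1c were.

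S100a8, one of 4 neutrophil markers, was higher in the hCAR/hPXR group than in both other CITCO groups. The 4 summed to 33.7 to 49.2 CPM in hCAR/hPXR libraries, 4.22 to 9.73 in WT CITCO, 6.57 to 11.69 in Car KO/hPXR and 3.58 to 6.35 in WT corn oil, with Retnlg at 0 in WT CITCO and Car KO/hPXR. S100a8 was called for hCAR/hPXR over WT CITCO (log2 fold change 2.54, adjusted p = 0.00961, edgeR's quasi-likelihood test) and over Car KO/hPXR (2.16, adjusted p = 0.0242). S100a9, the only other one tested, was not called (log2 fold changes 2.49 and 2.12, adjusted p of 0.101 and 0.130 by the same test). Csf3r had 0, 4 and 0 counts and Retnlg 1, 2 and 3 in the hCAR/hPXR libraries, so the sum was carried by S100a8 and S100a9. The 5 red blood cell markers summed to 1859 to 2192 CPM in hCAR/hPXR, 1987 to 3985 in WT CITCO, 2138 to 3424 in Car KO/hPXR and 2298 to 3882 in WT corn oil libraries, and all 5 had a negative fold change in hCAR/hPXR against both other CITCO groups, with 0 called. All 5 hepatocyte markers also had a negative fold change in hCAR/hPXR against WT CITCO (median -0.17 on the log2 scale) and Car KO/hPXR (-0.35), with 0 called. They summed to 22258, 22942 and 36886 CPM in hCAR/hPXR replicates 1, 2 and 3 and to between 28158 and 36551 CPM in the other 9 libraries. The 6 sinusoidal endothelial markers summed to between 181 and 240 CPM in every group, and 0 were called. The part of these cell types in the values of the class II genes, the GTPases and Stat2 was not tested.

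B2m, Tapbp and the 4 class I chains had the smallest ratios of highest to lowest library among the 34 members tested. B2m, the light chain of every class I molecule (chromosome 2, 122147686 to 122153083), was counted at 2146 ± 264 CPM in WT corn oil, 2457 ± 90.4 in WT CITCO, 2060 ± 320 in hCAR/hPXR and 2311 ± 207 in Car KO/hPXR mice (SD, n = 3 each). Groups overlapped in every comparison, and the log2 fold changes ran from -0.25 to 0.20. The highest of the 12 libraries was 1.43 times the lowest for B2m, which had 2410 to 5363 counts. It was 13.5 times for Isg15, which had only 2 to 39 counts and so a larger counting error.

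H2-K1, a classical class I chain that presents peptides to CD8 T cells, had means of 647 ± 42.8 CPM in WT corn oil, 656 ± 164 in WT CITCO, 596 ± 52.5 in hCAR/hPXR and 649 ± 113 in Car KO/hPXR mice (SD, n = 3 each). Its 95% interval stayed within a 1.5-fold change in all 4 comparisons. H2-D1, the other classical chain, had 333, 308 and 313 CPM in WT corn oil and 343, 436 and 398 in WT CITCO libraries. These did not overlap (log2 fold change 0.30 ± 0.15, adjusted p = 0.547, edgeR's quasi-likelihood test). H2-T23, the Qa-1 chain seen by NK cell receptors, had 49 to 84 counts, and its 95% interval stayed within a 1.5-fold change in 3 of the 4 comparisons.

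H2-Q10 (chromosome 17, 35470089 to 35474563), a secreted class I chain made chiefly by liver, was counted at 1228, 1274 and 1357 CPM in WT corn oil, 1015, 1128 and 967 in WT CITCO, 1152, 1388 and 1357 in hCAR/hPXR and 1124, 1460 and 1418 in Car KO/hPXR mice. The WT CITCO libraries lay below all corn oil and hCAR/hPXR libraries, and overlapped with Car KO/hPXR by 1 library. The log2 fold change of Car KO/hPXR over WT CITCO was 0.36 ± 0.16 (SE; adjusted p = 0.489, edgeR's quasi-likelihood test), and that of WT CITCO over corn oil was -0.31 ± 0.16 (adjusted p = 0.590). Expected counts of H2-K1 and H2-D1 were not whole numbers in any of the 12 libraries, nor those of H2-Q10 in 10 of them, since RSEM divides reads between these similar genes. Summed over the 4 class I chains, the log2 fold changes were 0.12, 0.16, -0.11 and -0.04 in the 4 comparisons, with adjusted p-values of 0.821 to 0.961 by the same test.

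Tapbp, or tapasin, bridges class I and the peptide transporter. It was counted at 180, 216 and 207 CPM in WT corn oil, 170, 194 and 183 in WT CITCO, 241, 197 and 204 in hCAR/hPXR and 240, 246 and 199 in Car KO/hPXR mice. The WT CITCO libraries lay below all libraries of both humanised lines and overlapped with WT corn oil. The log2 fold change of Car KO/hPXR over WT CITCO was 0.32 ± 0.15 (SE; adjusted p = 0.520, edgeR's quasi-likelihood test). Tap1 and Tap2, the subunits of the transporter itself, had 16 to 51 and 9 to 19 counts, and their log2 fold changes lay between -0.34 and 0.66 with adjusted p-values of 0.658 to 0.992 by the same test.

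Of the 4 transcription factors 0 were called, and Stat2 alone had an unadjusted p under 0.05, between the humanised lines. Stat2 (chromosome 10, 128270559 to 128292849), the partner of IRF9 in the type I response, was counted at 16.1, 21.9 and 13.9 CPM in WT corn oil, 27.2, 17.98 and 17.6 in WT CITCO, 32.1, 26.0 and 30.0 in hCAR/hPXR and 19.1, 17.5 and 10.7 in Car KO/hPXR mice. The hCAR/hPXR libraries lay above all Car KO/hPXR and all WT corn oil libraries and overlapped with WT CITCO replicate 1. For hCAR/hPXR over Car KO/hPXR the log2 fold change was 0.88 ± 0.29 (SE; adjusted p = 0.230, edgeR's quasi-likelihood test). Irf9 had means of 58.8 ± 4.64 CPM in WT corn oil, 62.7 ± 10.0 in WT CITCO and 78.5 ± 7.27 in hCAR/hPXR mice, and it too did not overlap between both humanised lines, though the nearest libraries were each at 72.3 CPM (log2 fold change 0.24 ± 0.17, adjusted p = 0.695). Irf1, the factor that carries much of the interferon gamma response, had 75 to 182 counts and log2 fold changes of 0.05 to 0.28. Irf7, the amplifier of type I interferon production, was at 12.5 CPM in hCAR/hPXR CITCO replicate 3 and at 29.2 to 48.4 CPM in the other 11 libraries.

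Antiviral effectors and sensors varied from library to library without a call. Isg15, a ubiquitin-like protein that marks other proteins, was counted at 13.4, 10.6 and 15.1 CPM in WT corn oil, 11.68, 8.30 and 7.04 in WT CITCO, 10.9, 22.6 and 11.68 in hCAR/hPXR and 7.62, 1.67 and 15.6 in Car KO/hPXR mice. Its extremes, at 2 and 39 counts, were the replicates numbered 2 of both humanised lines, the higher in hCAR/hPXR, and all groups overlapped. Ifit1 had 4 to 26 counts, with both the lowest and the second highest CPM in WT CITCO libraries. Trim25, a ubiquitin ligase that activates RIG-I, had 74 to 168 counts and log2 fold changes of -0.38 to 0.31.

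Among the RNA sensors, Ddx58, which encodes RIG-I, had 29.9, 26.7 and 25.5 CPM in Car KO/hPXR and 19.2, 17.4 and 20.9 in hCAR/hPXR libraries. These did not overlap (log2 fold change of hCAR/hPXR over Car KO/hPXR -0.52 ± 0.26, adjusted p = 0.487, edgeR's quasi-likelihood test). Ifi27, a mitochondrial protein strongly induced by type I interferon, was counted at 144, 75.4 and 39.8 CPM in WT corn oil and at 131, 136 and 130 in WT CITCO libraries. The corn oil libraries span both sides of the WT CITCO ones, and without WT corn oil replicate 1 the adjusted p of Ifi27 in that comparison was 0.0593 (edgeR's quasi-likelihood test), the lowest of any member in any fit that left out a library. Rsad2, or viperin, had 11 to 54 counts and Bst2, or tetherin, 76 to 189, and neither had a group that stood apart from the rest.

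**Figure D4:**
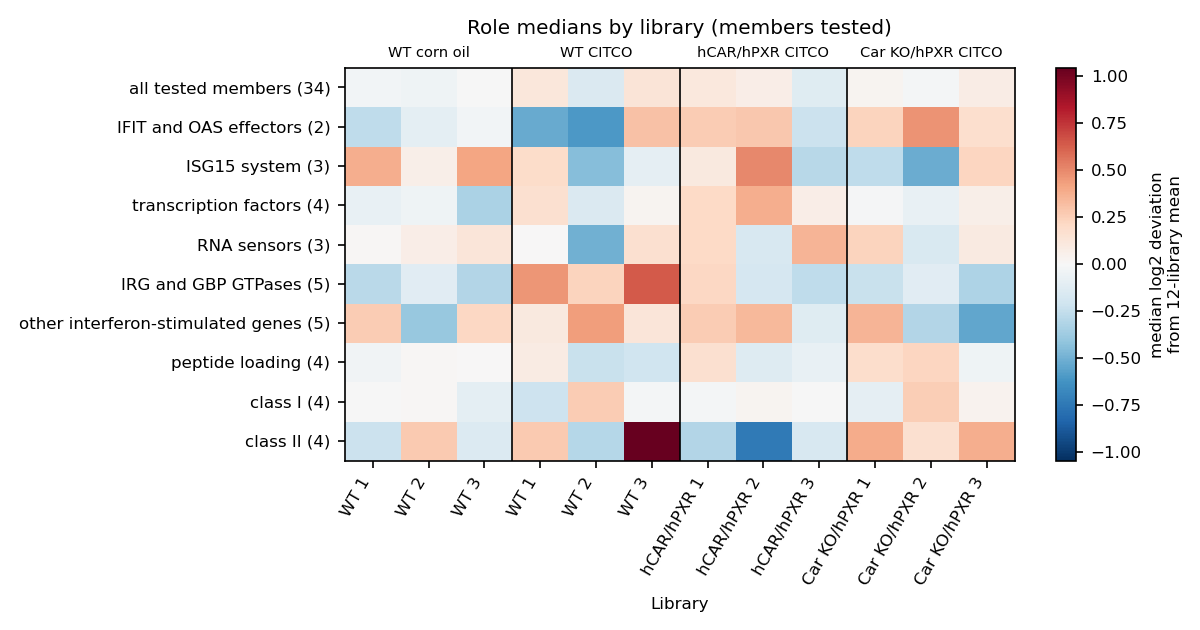
Median log2 deviation of the tested members of each role from their mean over 12 libraries (colour, with the number of members in brackets), by library and group. The median of the GTPases is above 0 in all 3 WT CITCO libraries (0.23 to 0.64) and in hCAR/hPXR replicate 1 (0.22). In WT CITCO replicate 2, Igtp (-1.04) and Gbp7 (-0.31) are below their means. The class II median runs from -0.74 in hCAR/hPXR replicate 2 to 1.05 in WT CITCO replicate 3, and the row over all 34 members stays between -0.15 and 0.14.

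Further genes of the same pathways were counted in 3 other lists, and 0 were called in any comparison. Of 18 receptors and signalling genes 15 were tested, and 2, 3, 2 and 2 had an unadjusted p under 0.05 in the 4 comparisons. Of 42 other interferon-stimulated genes 28 were tested, and 3, 5, 5 and 2 did so. Of 30 further antigen presentation genes 18 were tested, and 0, 3, 1 and 4 did so. Over all genes tested, 8.81%, 9.3%, 9.13% and 10.6% had an unadjusted p under 0.05 in these comparisons, and 0.233% to 0.582% were called. Gbp11, a guanylate-binding protein, had the lowest adjusted p of these lists, with means of 2.45 CPM in WT corn oil and 15.5 in WT CITCO mice (log2 fold change 2.55, adjusted p = 0.0742, edgeR's quasi-likelihood test). Its mean was 4.00 CPM in hCAR/hPXR and 6.89 in Car KO/hPXR mice. Cxcl9, a chemokine induced by interferon gamma, had means of 11.3, 31.4, 11.5 and 7.30 CPM in WT corn oil, WT CITCO, hCAR/hPXR and Car KO/hPXR mice. Gbp11 and Cxcl9 had their highest mean in WT CITCO and were named after their values were seen. In their list 16 of the 28 genes tested had a positive and 12 a negative fold change for WT CITCO over corn oil. Lgals9, or galectin-9, of the same list had a mean of 113 CPM in WT CITCO against 178 in WT corn oil (log2 fold change -0.66, adjusted p = 0.313, edgeR's quasi-likelihood test) and 175 in Car KO/hPXR mice. Irf2, a repressor of interferon-stimulated genes, had its lowest mean in WT CITCO, at 49.3 CPM against 76.3 in WT corn oil, 80.3 in hCAR/hPXR and 82.7 in Car KO/hPXR mice (adjusted p of 0.235, 0.163 and 0.114 against WT CITCO by the same test).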

How the data were processed

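Liver libraries of 12 mice were prepared with the Lexogen QuantSeq 3' kit for Ion Torrent. The authors checked reads with FastQC 11.7, trimmed them with Trimmomatic 36, aligned them with STAR 2.5.2 and estimated expected counts per gene with RSEM 1.3 on the Ensembl annotation of GRCm38. The deposited expected counts were not normalized, and the authors also deposited log2-like values, transformed by DESeq2 to stabilise their variance, for 17859 genes, which were used here for symbols and in 1 alternative. Groups came from the labels.

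Expected counts were rounded to whole numbers. Of the values of genes tested, 13.9% were not whole, since RSEM divides reads that fit several genes. Counts were filtered by filterByExpr, scaled by TMM and tested with edgeR 4.0.16 (R 4.3.3; glmQLFit, glmQLFTest) in 1 fit of 12 libraries with 1 mean per group. CPM are counts scaled to library size. SEs and 95% intervals came from the fold change and its F statistic. Alternatives were other size factors, DESeq2 1.42.0, limma 3.58.1, other filters, a replicate block, fits of only the groups compared and leaving out each library. The script was tested on simulated data. P-values weigh a difference of group means against the spread between libraries of the same group, estimated jointly over the 4 groups. An exact permutation test of 3 libraries against 3 cannot go below p = 0.1 (two-sided).

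The members and lists were chosen with earlier results of these data known. Named were members with an unadjusted p under 0.05, the member with most counts in each role, all tested antigen presentation members and, by range, members under the filter. Isg15, Irf7, Irf9, Gbp7, Rsad2, Bst2 and the genes of other lists were named after their values were seen, and some genes of those lists are not reported here. Gene coordinates are from GENCODE M21 on GRCm38, another release than the authors'. Promoters are from RefSeq on GRCm38.p6.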

Additional observations from a re-analysis of the deposited data

How the results depend on the processing

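The count of members called was 0 in every comparison under DESeq2's size factors, DESeq2's Wald test, limma on the deposited values, the stricter filter (31 members tested), fits of only the groups compared and each of the 12 fits that left out a library. Without the filter on low counts it was 1 between both humanised lines and 1 in the test of the 4 groups, in both cases H2-Aa; the cause was not tested. Over all genes, calls in the 4 comparisons numbered 35, 22, 20 and 50 as reported, 184, 227, 179 and 233 without the filter, and 67, 69, 47 and 97 by DESeq2. The median log2 fold change of members for WT CITCO against WT corn oil was 0.063 by limma on the deposited values. With each library left out in turn, that median ran from 0.073 to 0.20, and for the others from -0.062 to 0.069 (hCAR/hPXR against WT CITCO), -0.068 to 0.089 (Car KO/hPXR against WT CITCO) and -0.090 to 0.12 (hCAR/hPXR against Car KO/hPXR). Fold changes of H2-K1 and H2-D1 against WT CITCO changed sign when the 4 class I chains were summed (0.12 for hCAR/hPXR, 0.16 for Car KO/hPXR), as they did for WT CITCO against corn oil (-0.11). That of H2-D1 between the humanised lines was -0.034 with H2-K1 added and -0.039 with all 4 summed. None of these passed the test, and the sum is led by H2-Q10.

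The labels number the replicates and do not say that the numbers pair libraries. Correlations of the 18 same-numbered pairs ran from -0.058 to 0.074 (median 0.031, against -0.0099 for other pairs), with 0 over 0.1. Of the 12 libraries, 9 were closest to their own number, a weak hint of pairing from the data only. The highest correlation of all was between differently numbered libraries, WT corn oil replicate 1 and hCAR/hPXR CITCO replicate 3 (0.135). With the replicate number as a block, 0 members were called in every comparison, and 33, 24, 20 and 53 of all genes were called.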
